A study of Rattus norvegicus with 6 samples.

Results

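The genes described here encode the transforming growth factor beta (TGF-beta) and bone morphogenetic protein (BMP) pathway: ligands, the proteins that hold or trap them, receptors, the Smad proteins that carry the signal to the nucleus, and target genes. They were taken from a list of 50 gene symbols, and a gene counted as measured where the platform annotation gave a feature of the array that symbol alone. By this rule 47 of 50 were measured, among 18166 genes in all. The genes Tgfbr2, Gdf5 and Skil were not analysed here. Of the measured genes 18 of 20 belong to the TGF-beta and activin arm, 22 of 23 to the BMP arm, and 7 are shared by both arms or lie beside them. The arm of 6 members is open to question: Tgfbr3, Acvr2a, Acvr2b and Tgfbi, placed here with TGF-beta and activin, and Bmp3 and Gdf10, placed with BMP.

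TGF-beta and activin ligands bind pairs of type II and type I receptors that phosphorylate Smad2 and Smad3, whereas BMP ligands act through other type I receptors on Smad1, Smad5 and Smad9. Both classes of Smad form complexes with Smad4 that move into the nucleus. In the fat lineage TGF-beta and activin are known to hold back adipocyte differentiation, and BMP ligands are known to commit precursors to it.

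RNA was measured on 1-colour arrays in cultures of ADSCs (adipose-derived stem cells, stromal cells that can become fat cells), taken from the inguinal fat tissue of female Wistar rats aged 2 weeks. The 3 control arrays came from ADSCs grown in alpha-modified eagle medium with 10% fetal bovine serum. The 3 induced arrays came from cells given adipogenic induction for 7 days, in the same medium with 20% serum, insulin at 5 µg/ml, dexamethasone (a synthetic glucocorticoid) at 1 µM and 3-isobutyl-1-methylxanthine (a phosphodiesterase inhibitor) at 0.5 mM. Serum and the inducers therefore cannot be told apart. The labels do not give the time in culture of the control cells, so time cannot be told apart from induction either. The labels call the arrays of each group biological replicates without saying whether the cultures came from separate animals, so p-values measure the spread between these cultures, which may be technical.

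Values are log2 signals, differences are induced minus control on that scale, and errors of a mean are SDs over 3 arrays. Array medians lay between 5.64 and 5.73. Induced replicate 3 stood apart, correlating with induced replicates 1 and 2 at r = 0.9681 and 0.9687, against r = 0.9894 between those arrays. All 12 mature adipocyte markers read higher on every induced array than on every control array, with a mean signal of 8.31, 6.90 and 6.70 in control (replicate 1 first) against 10.47, 10.46 and 11.43 in induced cultures. The 10 measured stromal precursor markers averaged 9.61 to 9.68 in control, 9.24 and 9.20 on induced replicates 1 and 2, and 8.36 on induced replicate 3. The 12 macrophage markers averaged 6.58, 6.99 and 5.40 in control and 7.65, 7.23 and 5.80 in induced cultures, with overlapping groups for all 12 and replicate 3 the lowest array of each group. Lyz2, a lysozyme gene of macrophages, read 9.31, 10.19 and 4.71 against 11.56, 10.99 and 4.44. Replicate 3 was the lowest array of each group for every macrophage marker except Aif1, C1qa and Cd68. Cd68 read 8.01, 8.60 and 5.96 against 8.92, 8.38 and 9.45, highest on induced replicate 3. On average 8 endothelial markers read 5.35 to 5.45 on all 6 arrays, 8 mural cell markers 5.90 to 6.33, and 9 cell division genes 9.04 to 9.68 in control and 7.90 to 8.69 in induced cultures. The part of any of these in the results below was not tested. In cultures with several cell types, fewer cells of a type and less RNA per cell cannot be told apart.

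Most pathway genes had lower mean signals after induction, and the receptor gene Bmpr1b was the 1 member that passed the test over all genes. Estimates were negative for 35 of 47 members, against 9514 of 18166 genes, and the median difference was -0.29 over the members and -0.01 over all genes. With limma and an adjusted p under 0.05, 1 of 47 members was called, where 0.749% of all genes were. At an unadjusted p under 0.05 there were 14 members lower and 2 higher, where 9.51% and 8.13% of all genes were. All 3 induced arrays lay below all 3 control arrays for 17 members, where 13.4% of genes did so, and above them for 1 member, Id1, where 12.0% of genes did so. Without induced replicate 3 estimates were negative for 27 of 47 members, with a median of -0.18. Without both replicate 3 arrays they were negative for 26 of 47, with a median of -0.021.

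**Figure D1:**
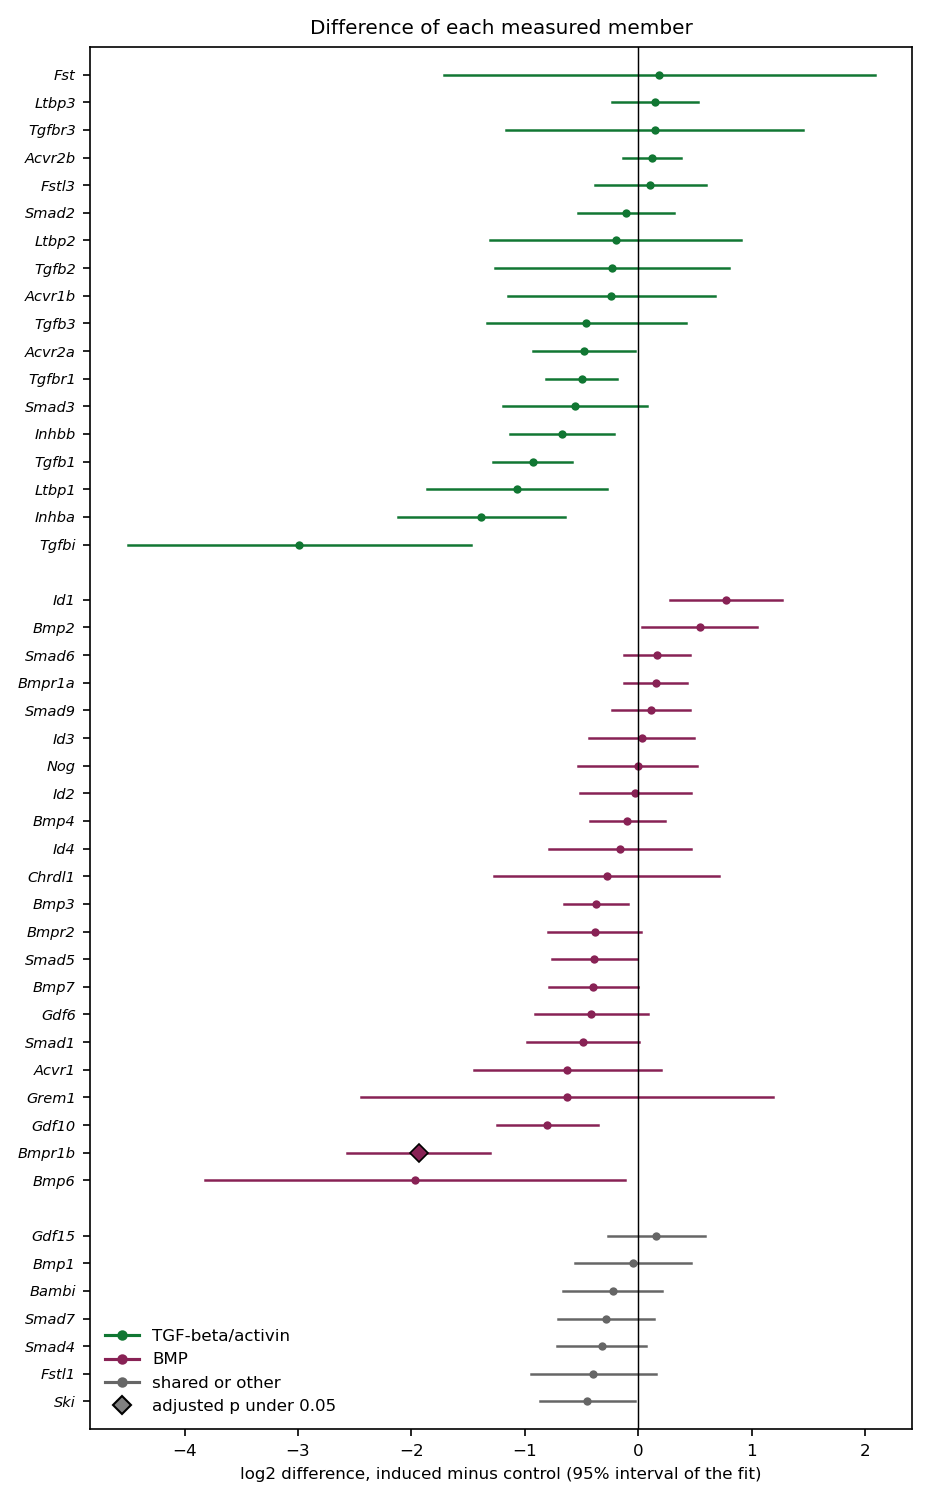
Difference of each of the 47 measured members on the log2 scale (induced minus control, x axis), with the 95% interval of the fit as a bar and the members sorted within each arm. The diamond marks Bmpr1b at -1.94, the 1 member with an adjusted p under 0.05, and 35 points lie left of 0.

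The medians of both arms were negative and close to each other over all arrays. The median difference was -0.35 over 18 TGF-beta and activin genes, 13 of them negative, and -0.33 over 22 BMP genes, 16 of them negative. Without induced replicate 3 it was -0.26 (11 of 18 negative) in the TGF-beta and activin arm and 0.04 (10 of 22 negative) in the BMP arm. The difference between the arms was not tested. Set against the mean of the control arrays, the TGF-beta and activin arm had a median of -0.19 on induced replicate 1, -0.33 on replicate 2 and -0.89 on replicate 3. The BMP arm had 0.04, 0.00042 and -0.54 on the same arrays, and all genes had -0.00052, -0.02 and -0.02. On control replicates 1, 2 and 3 the TGF-beta and activin arm had -0.04, 0.10 and 0.19, and the BMP arm -0.02, -0.00036 and 0.03. Induced replicate 3 held the lowest value of the 6 arrays for 26 of 47 members, against 28.9% of all genes, and control replicate 3 the highest for 20 members, against 19.6% of all genes. Without both replicate 3 arrays the medians were -0.023 and -0.014. Induced replicates 1 and 2 both lay below all control arrays for 18 members, where 18.3% of genes did so, and above them for 4, where 17.5% did so. In each arm 8 members were below in this way and 2 above. No test was made over an arm, because the members were chosen with results of these arrays known.

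**Figure D2:**
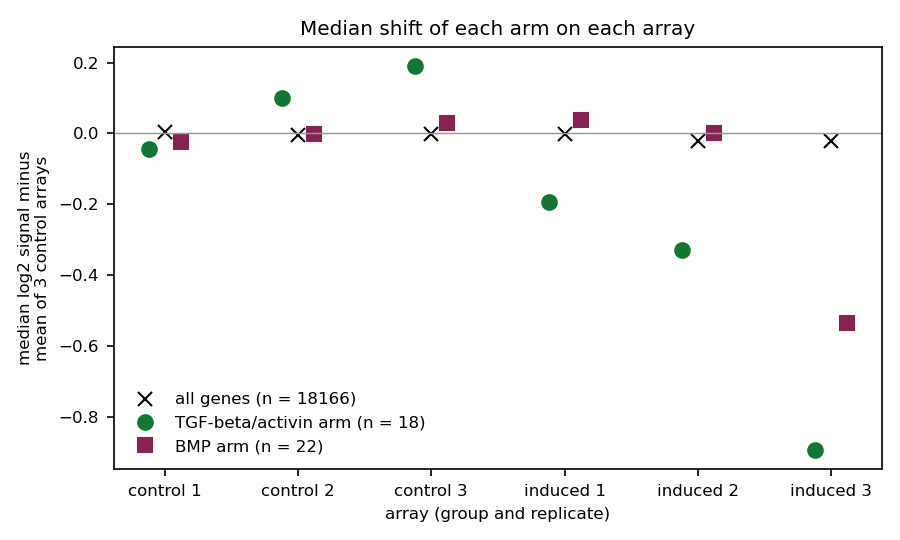
Median over each arm, and over all genes, of the log2 signal on an array minus the mean of the 3 control arrays (y axis), for each of the 6 arrays (x axis). The BMP arm lies near 0 on induced replicates 1 and 2 and at -0.54 on induced replicate 3. The TGF-beta and activin arm lies below 0 on all 3 induced arrays and between -0.04 and 0.19 on the control arrays.

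Among TGF-beta and activin ligands all 5 estimates were negative, and the groups were separate for Tgfb1, Inhba and Inhbb. Tgfb1 encodes the most widely expressed TGF-beta. It read 8.90, 9.08 and 9.29 in control and 8.33, 8.07 and 8.08 in induced cultures, a difference of -0.93 (SE 0.14, 95% interval -1.28 to -0.58, limma adjusted p = 0.053), just outside the threshold. The groups did not overlap, and each spread less than the gap between their means. Tgfb1 did pass when arrays were shifted to a common median (-0.94, adjusted p = 0.0389), when only genes above the median level were tested (adjusted p = 0.048), with array weights (-0.90, adjusted p = 0.016), and without induced replicate 3 (-0.89, adjusted p = 0.0412) or without both replicate 3 arrays (-0.79, adjusted p = 0.0437). Over all 13 alternatives, 5 of which it passed, the adjusted p ran from 0.016 to 0.183.

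Inhba encodes the activin A subunit. It read 8.45, 9.63 and 9.45 in control and 7.96, 7.78 and 7.65 in induced cultures, a difference of -1.38 (SE 0.31, adjusted p = 0.106). Control replicate 1 was the lowest control array. Inhba passed under 2 of 13 alternatives, without control replicate 1 (-1.75, adjusted p = 0.0278) and with array weights (adjusted p = 0.0288). Over all 13 its estimate ran from -1.75 to -1.16 and its adjusted p from 0.0278 to 0.287, the highest without control replicate 2. Inhbb, the activin B subunit, read 8.62, 8.64 and 9.21 in control and 8.28, 8.19 and 7.97 in induced cultures, a difference of -0.67 (SE 0.19, adjusted p = 0.157), or -0.39 without both replicate 3 arrays. Tgfb2 and Tgfb3, the other TGF-beta isoforms, had estimates of -0.23 and -0.46 (SE 0.43 and 0.37) with overlapping groups, and control replicate 1 was the lowest of all 6 arrays for both.

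Some latent TGF-beta binding proteins, such as that of Ltbp1, tether the inactive ligand to the matrix. Ltbp1 read 9.66, 8.54 and 9.85 in control and 8.19, 8.39 and 8.28 in induced cultures, a difference of -1.07 (SE 0.33, adjusted p = 0.184). The groups were separate, but control replicate 2 lay close to the induced arrays. Ltbp2 and Ltbp3 had estimates of -0.20 and 0.15 with overlapping groups. Of the receptors, the type I receptor Tgfbr1 read 8.43, 8.25 and 8.58 against 8.01, 7.98 and 7.78 (difference -0.50, SE 0.13, adjusted p = 0.139), and the activin type II receptor Acvr2a had an estimate of -0.48 (adjusted p = 0.261) with separate groups. The type I activin receptor Acvr1b, the type II receptor Acvr2b and the co-receptor Tgfbr3 (betaglycan) overlapped between groups, with estimates of -0.24, 0.12 and 0.14.

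Follistatin, encoded by Fst, traps activins. It read 10.27, 10.17 and 8.48 in control and 10.63, 10.69 and 8.16 in induced cultures (difference 0.19, 95% interval -1.71 to 2.08). Replicate 3 was the low array in both groups, as it was for the mean of the macrophage markers. The same was true of the stromal precursor markers Dcn, Dpp4, Nt5e, Pdgfra and Pdgfrb, but not of Cd34, Cd44, Col1a1, Pi16 and Thy1. The part of these cell types in this was not tested. Fstl3, a related activin trap, had an estimate of 0.11. Of the receptor-activated Smads, Smad3 read 8.03, 7.67 and 7.54 against 7.50, 7.45 and 6.62 (difference -0.56, SE 0.27, adjusted p = 0.341), with induced replicate 3 well below the rest. Without that array the Smad3 estimate was -0.27 (adjusted p = 0.466). Over all arrays Smad2 had an estimate of -0.11.

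The largest difference of any member was that of Tgfbi, a secreted matrix protein named for its induction by TGF-beta. It read 7.43, 9.07 and 10.16 in control and 5.96, 6.11 and 5.64 in induced cultures, means of 8.89 ± 1.38 and 5.90 ± 0.24 (SD, n = 3), a difference of -2.99 (SE 0.63, 95% interval -4.50 to -1.47, adjusted p = 0.0963). The groups were separate, and most of the spread lay among the control arrays, where control replicate 1 was lowest. All 3 induced values lay below 6.46, the median of the gene means, and the arrays give no call of detection. Tgfbi passed under 2 of 13 alternatives, without control replicate 1 (-3.72, adjusted p = 0.0334) and with array weights (-3.02, adjusted p = 0.0237). Over all 13 its estimate ran from -3.72 to -2.22 and its adjusted p from 0.0237 to 0.285, the highest without control replicate 2.

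The promoters of Inhba and Tgfbi, the members of this arm with the lowest estimates, are shown with the matches to letters bound by Smad proteins in capitals. The sequences are RefSeq's for GRCr8, from 250 bases before the transcript start to 30 after it, on the minus strand of chr17:53804479-53804758 (Inhba) and chr17:7990084-7990363 (Tgfbi). The motifs searched on both strands were CAGACA and GTCTG, letters of the Smad3 and Smad4 element, and GGCGCC, an element bound by BMP Smads. CAGACA contains the reverse complement of GTCTG, so a match to the first is also one to the second.
Inhba: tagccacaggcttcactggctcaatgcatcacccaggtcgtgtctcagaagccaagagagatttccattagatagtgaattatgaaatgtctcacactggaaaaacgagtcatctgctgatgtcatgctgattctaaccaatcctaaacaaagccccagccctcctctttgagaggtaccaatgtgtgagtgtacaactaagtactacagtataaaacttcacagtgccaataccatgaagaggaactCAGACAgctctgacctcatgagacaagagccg
Tgfbi: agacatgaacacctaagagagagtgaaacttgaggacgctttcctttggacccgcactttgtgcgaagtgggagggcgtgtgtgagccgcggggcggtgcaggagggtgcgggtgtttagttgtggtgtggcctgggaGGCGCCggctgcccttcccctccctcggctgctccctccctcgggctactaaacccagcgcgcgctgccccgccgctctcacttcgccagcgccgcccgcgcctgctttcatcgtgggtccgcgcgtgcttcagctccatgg
The Inhba window holds CAGACA across the start site and no GGCGCC, and the Tgfbi window holds GGCGCC and neither of the other motifs. A promoter of 300 bases was found for 37 of 47 members. GGCGCC was in 16 of 37 (43.2%), against 11% of 33469 promoters, but the median GC content was 65.3% in the members and 51.7% in all. CAGACA was in 13.5% against 21.1%, and GTCTG in 32.4% against 50.1%. By arm, GGCGCC was in 50% of 16 TGF-beta and activin promoters and 31.2% of 16 BMP promoters. GTCTG was in 25% and 50% of them, and CAGACA in 12.5% and 18.8%. The difference between the arms in these shares was not tested. Matches describe these letters and are not evidence of binding.

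**Figure D3:**
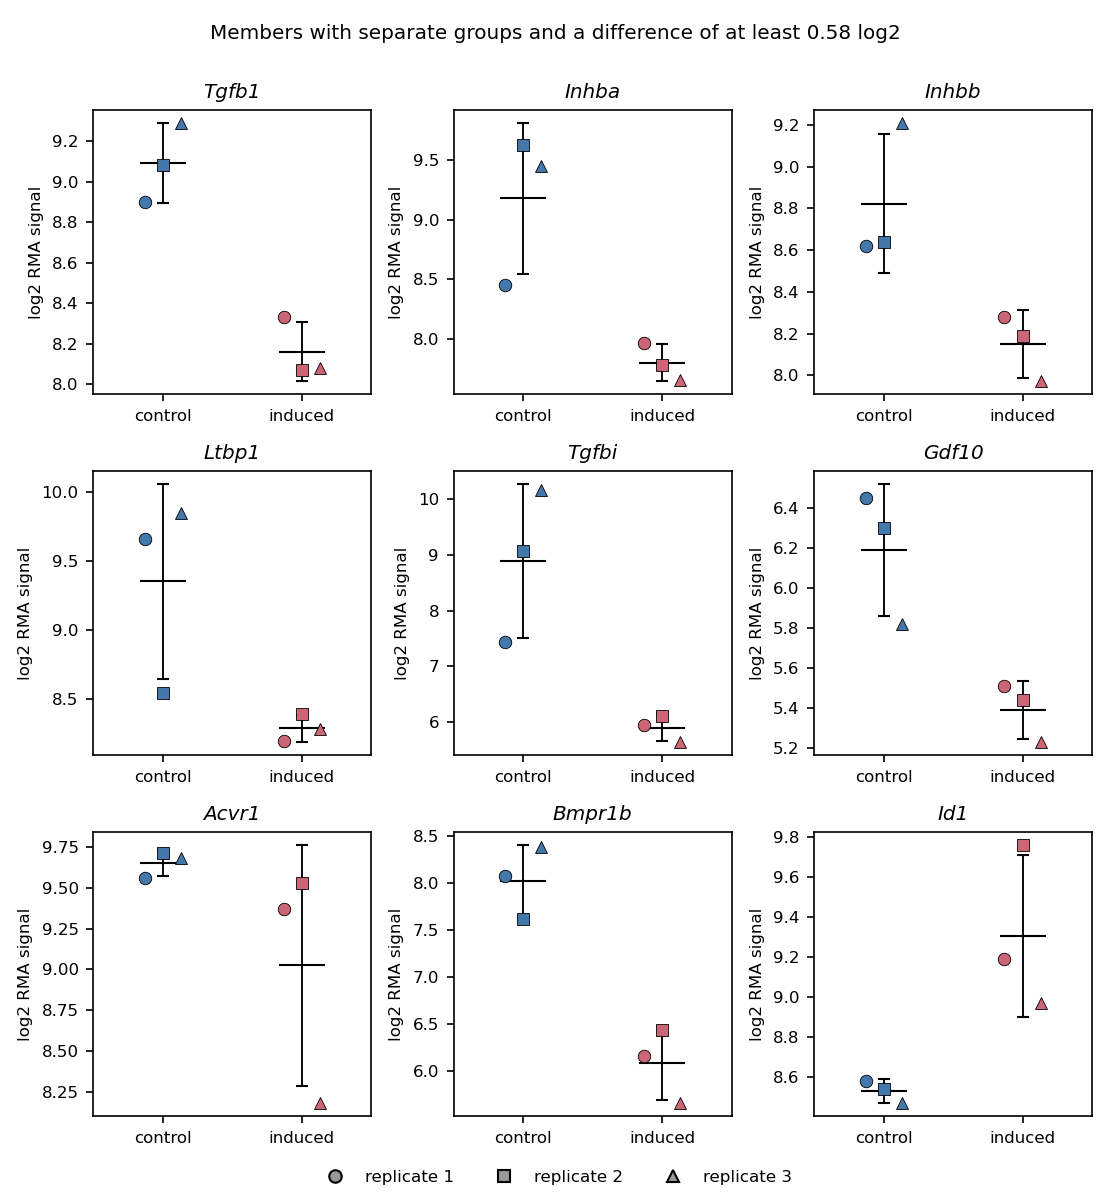
Log2 signal on each array (y axis, its range set for each gene) for the 9 members whose groups were separate with a difference of at least 0.58, with the 3 control arrays in blue, the 3 induced arrays in red and a symbol shape for each replicate number. Horizontal lines are means and bars SDs; Id1 is higher in the induced group and the others are lower.

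In the BMP arm 1 receptor gene fell, Bmpr1b, which encodes a type I BMP receptor. It read 8.07, 7.62 and 8.38 in control and 6.16, 6.44 and 5.66 in induced cultures, means of 8.02 ± 0.38 and 6.09 ± 0.39 (SD, n = 3). It fell by 1.94 (SE 0.26, 95% interval -2.57 to -1.31, limma adjusted p = 0.0369), to 0.261 times its control signal, and was lower on 3 of 3 induced arrays than on any control array. All 3 induced values lay below 6.46, the median of the gene means, and the arrays give no call of detection. The size held with any array left out (-2.14 to -1.72), but it no longer passed on leaving out control replicate 1, 2 or 3 (adjusted p = 0.0964, 0.0801 and 0.113) or induced replicate 1 or 2 (adjusted p = 0.16 and 0.104). Without induced replicate 3 the adjusted p was 0.0175. The other type I receptor, Bmpr1a, read 9.63, 9.54 and 9.49 against 9.62, 9.64 and 9.86, and its estimate of 0.15 had a 95% interval of -0.12 to 0.43. The type II receptor Bmpr2 had an estimate of -0.38 with overlapping groups. Acvr1, a further type I receptor, read 9.56, 9.71 and 9.68 against 9.37, 9.53 and 8.18 (difference -0.63, SE 0.35, adjusted p = 0.407), and without induced replicate 3 its estimate was -0.20.

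Of 7 measured BMP ligand genes 1 had a positive estimate and 6 a negative one. Bmp2 read 6.33, 6.16 and 6.28 in control and 7.07, 7.01 and 6.32 in induced cultures, a difference of 0.54 (SE 0.21, adjusted p = 0.262). Induced replicate 3 lay among the control arrays. Bmp2 passed under 3 of 13 alternatives, without induced replicate 3 (0.78, adjusted p = 0.0233), without both replicate 3 arrays (0.79, adjusted p = 0.0308) and with array weights (0.75, adjusted p = 0.0304). Over all 13 its estimate ran from 0.41 to 0.79 and its adjusted p from 0.0233 to 0.513, the highest without control replicate 2. Bmp6 read 6.54, 8.63 and 9.91 in control and 6.23, 6.36 and 6.59 in induced cultures (difference -1.97, SE 0.77, adjusted p = 0.264). Control replicate 1 sat among the induced arrays for Bmp6 and was the lowest control array for Tgfbi. The Bmp6 estimate was -2.88 without control replicate 1 (adjusted p = 0.0601) and -1.19 without control replicate 3 (adjusted p = 0.49), and it passed under 0 of 13 alternatives.

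Gdf10, a relative of Bmp3 that is also called BMP3B, read 6.45, 6.30 and 5.82 in control and 5.51, 5.44 and 5.23 in induced cultures (difference -0.80, SE 0.19, adjusted p = 0.113), with separate groups. It passed under 2 of 12 alternatives, with array weights (-0.75, adjusted p = 0.043) and without both replicate 3 arrays (-0.91, adjusted p = 0.0199), and its adjusted p ran up to 0.317. Bmp3, Bmp7 and Gdf6 had estimates of -0.38, -0.40 and -0.41 and Bmp4, a ligand tied to fat precursor commitment, one of -0.09 (SE 0.14). Bmp3, Bmp4, Bmp7, Gdf6 and Gdf10 all had mean signals below 6.46, the median of the gene means, where the arrays give no call of detection. Acvr2b, Smad9, Id2 and Id4 did too.

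Grem1, which encodes the secreted BMP trap gremlin, read 11.87, 11.58 and 10.82 in control and 11.67, 11.76 and 8.96 in induced cultures (difference -0.63, 95% interval -2.44 to 1.18), and Chrdl1, a chordin-like antagonist, 11.37, 10.97 and 10.70 against 11.23, 11.21 and 9.77 (difference -0.28). Both read lowest on replicate 3 in each group, as Fst did. Without induced replicate 3 their estimates turned to 0.29 and 0.21. Nog, which encodes noggin, had an estimate of -0.0049 (95% interval -0.53 to 0.52).

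The BMP Smad genes Smad1 and Smad5 were below control on all 3 induced arrays. Smad1 read 9.12, 9.24 and 9.41 against 8.99, 9.00 and 8.33 (difference -0.48, SE 0.21, adjusted p = 0.291). Smad5 read 9.21, 9.16 and 9.31 against 8.99, 9.00 and 8.53 (difference -0.39, SE 0.16, adjusted p = 0.271). The groups were separate for both, with induced replicate 3 the lowest, and without it the estimates were -0.26 and -0.23. Smad9 and the inhibitory Smad6 had estimates of 0.11 and 0.17 with overlapping groups.

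The Id genes, which encode inhibitors of helix-loop-helix transcription factors and are well-known BMP targets, had a median difference of 0.0015. Id1 read 8.58, 8.54 and 8.47 in control and 9.19, 9.76 and 8.97 in induced cultures, a difference of 0.77 (SE 0.21, 95% interval 0.28 to 1.27, adjusted p = 0.143). All 3 induced arrays lay above the control arrays, which spread little. Id1 passed under 2 of 13 alternatives, without induced replicate 3 (0.94, adjusted p = 0.0494) and with array weights (0.88, adjusted p = 0.0409). Its adjusted p ran up to 0.348. Id2, Id3 and Id4 had estimates of -0.03, 0.03 and -0.16 with overlapping groups, and 95% intervals of -0.52 to 0.46, -0.43 to 0.49 and -0.79 to 0.47. The mean signals of Id2 and Id4 lay below 6.46, the median of the gene means. The Id1 promoter is shown because Id1 was the 1 member whose induced arrays all lay above control. It is given as for Inhba, on the plus strand of chr3:161671314-161671593 (GRCr8), with its 1 match to GTCTG, in reverse complement, in capitals.
Id1: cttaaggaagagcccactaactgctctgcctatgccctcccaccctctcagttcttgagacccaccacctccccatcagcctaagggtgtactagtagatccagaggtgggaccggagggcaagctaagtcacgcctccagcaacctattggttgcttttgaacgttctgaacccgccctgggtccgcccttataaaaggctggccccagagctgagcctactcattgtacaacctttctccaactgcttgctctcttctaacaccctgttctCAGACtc
No GGCGCC or CAGACA lies in the Id1 window, which says only that these letters are not in it.

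**Figure D4:**
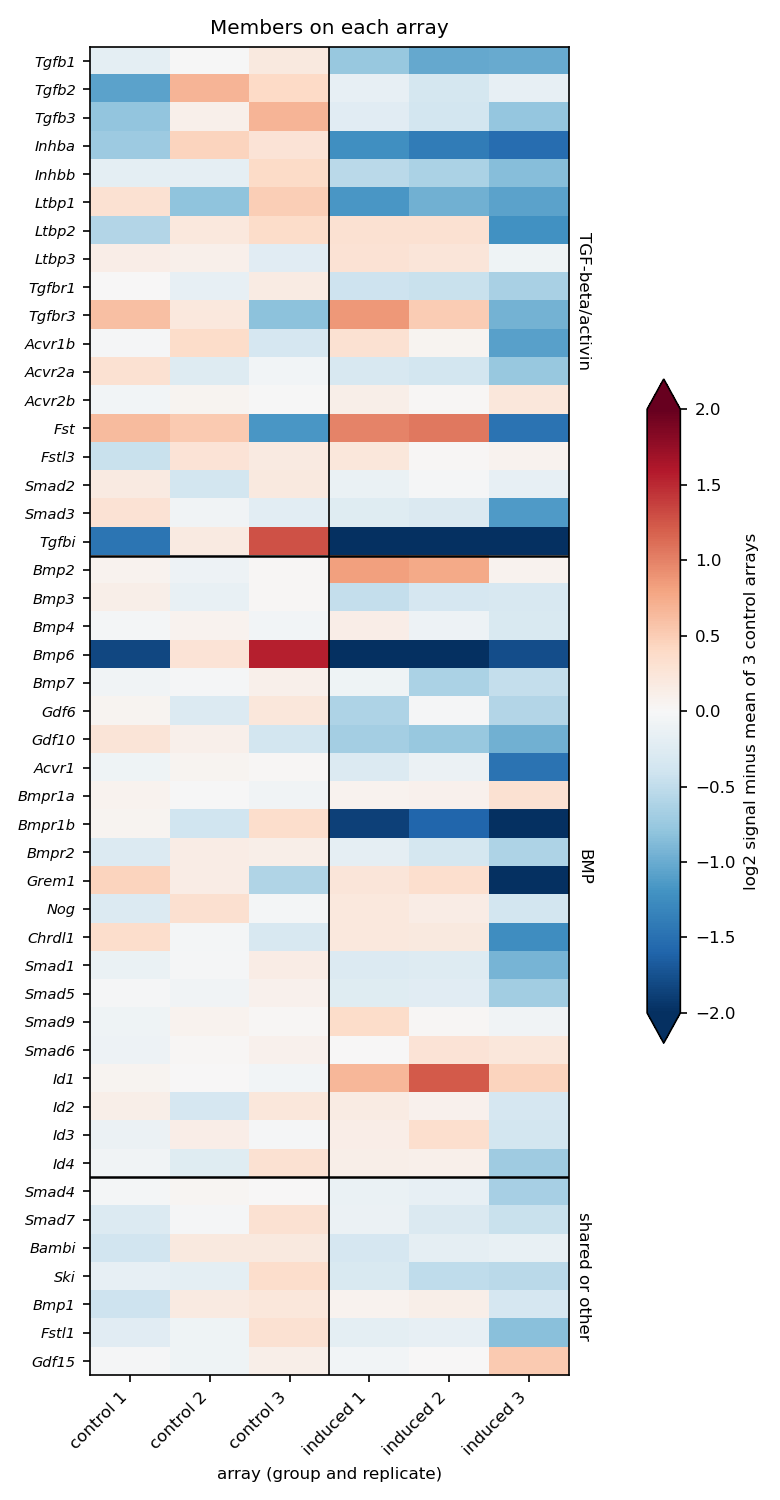
Log2 signal of each measured member (rows, by arm) on each of the 6 arrays (columns) minus the mean of its 3 control arrays, with colours limited to -2 and 2. Bmpr1b and Tgfbi are blue on all 3 induced arrays, and Fst and Grem1 are blue on induced replicate 3 alone of the induced arrays. Control replicate 1 is also blue for Bmp6 and Tgfbi, and control replicate 3 for Fst and Grem1.

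Among genes that serve both arms, Smad4 read 10.12, 10.19 and 10.17 in control and 10.02, 9.99 and 9.49 in induced cultures (difference -0.32, SE 0.16, adjusted p = 0.373). The groups were separate, with little spread among the control arrays and induced replicate 3 the lowest, and without it the estimate was -0.15. Ski, a nuclear repressor of Smad activity, read 9.13, 9.10 and 9.64 against 8.98, 8.79 and 8.76 (difference -0.45, SE 0.17, adjusted p = 0.259), also with separate groups. Without control replicate 3 the Ski estimate was -0.27. The inhibitory Smad7, the pseudoreceptor Bambi, the procollagen and chordin protease Bmp1, the secreted glycoprotein Fstl1 and the stress-induced ligand Gdf15 overlapped between groups, with estimates from -0.40 (Fstl1) to 0.16 (Gdf15).

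Other genes of the pathway were read from lists beside the members. Of 30 measured further TGF-beta and activin components limma called 0, with 6 lower and 2 higher at an unadjusted p under 0.05 and a median of -0.15. The largest differences were those of Acvr1c, a type I receptor of the activin and nodal class found in adipocytes, at 2.79 (SE 0.75, adjusted p = 0.143), and Emilin1, a matrix protein that limits TGF-beta maturation, at -1.33 (SE 0.23, adjusted p = 0.065). Acvr1c read 5.95, 5.72 and 5.07 in control and 7.50, 7.42 and 10.21 in induced cultures, all induced arrays being higher and replicate 3 far above the others. Of 29 further BMP components 0 were called, with 3 lower and 2 higher at an unadjusted p under 0.05 and a median of -0.08. Beside both lists, 0.749% of all genes were called, and 9.51% were lower and 8.13% higher at that p. Tll1, a protease related to Bmp1, stood at -1.06 (adjusted p = 0.259) and Bmper, a secreted BMP modulator, at 1.05 (adjusted p = 0.0815).

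Of 15 measured TGF-beta target genes 1 was called lower, the collagen-binding integrin Itga11 (difference -2.20, limma adjusted p = 0.0323), and at an unadjusted p under 0.05 there were 5 lower and 0 higher. Over all genes 0.749% were called, and 9.51% were lower and 8.13% higher at that p. The list median was -0.54. Itga11 was put on the list with its result known, so its call is not independent evidence. Itga11 read 10.93, 11.20 and 12.03 in control and 9.31, 9.17 and 9.07 in induced cultures. Ccn2, also known as connective tissue growth factor, read 10.32, 10.60 and 10.80 against 9.98, 10.13 and 8.89 (difference -0.91, adjusted p = 0.24). Of 16 BMP target genes 0 were called by limma, with 1 lower and 1 higher at an unadjusted p under 0.05 and a median of -0.03. Runx2, a transcription factor of bone formation, read 8.74, 8.62 and 9.30 against 7.86, 7.53 and 7.60 (difference -1.22, SE 0.20, adjusted p = 0.0614), and Gata3 stood at -0.72 (adjusted p = 0.561).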

How the data were processed

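RNA of 6 rat cultures (3 control, 3 induced) was measured on arrays, using 6 µg of total RNA for labelling, per the labels' protocols. Signals deposited by the authors ran from 1.78 to 13.55 and were taken as log2 from that range. They come from RMA, per the submitters' processing notes, which name no steps or version. RMA in its usual form quantile-normalizes the arrays, which hides a change in total RNA, and gives no detection call. Precision is limited by the number of arrays.

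Of 36685 features 18511 had 1 gene symbol, 575 several and 17599 none in the platform annotation. The feature with the highest mean stood for each of 18166 genes, and each member had 1 feature. All genes were tested between the groups in R 4.3.3 by limma 3.58.1 (two-sided, lmFit then eBayes, 4 residual and 2.65 prior degrees of freedom, no block), with Benjamini-Hochberg adjustment over all genes and a threshold of 0.05. The fit was tested on simulated data. An exact permutation test of 3 against 3 cannot go below 0.1, so none was used. Arrays were shown in full for members that were called or had separate groups with a difference of at least 0.58, which was the rule for named genes. Others shown by array (Tgfbr1, Fst, Smad1, Smad3, Smad4, Smad5, Bmp2, Bmp6, Bmpr1a, Grem1, Chrdl1 and Ski) were chosen after their values were seen. So were the macrophage markers Lyz2 and Cd68. From each other list, called genes and the 2 with the largest difference were named. Members, arms and lists were chosen with earlier results of these data known. Alternatives were a replicate block, the mean over features, a common median, a filter on dim genes, array weights, another prior and arrays left out.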

Additional observations from a re-analysis of the deposited data

How the results depend on the processing

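The estimates and the number of calls depended on single arrays. Of 47 members 1 was called; this was 0 with a replicate block, 2 with arrays shifted to a common median, 2 among genes above the median level, 7 with array weights (929 genes called in all), 4 without both replicate 3 arrays (740 genes) and 0 to 4 with 1 array left out. Genes called in all numbered 136, 12 with the replicate block and 2 to 557 with 1 array left out. The block, in which Bmpr1b had an adjusted p of 0.105, rests on numbers that are not known to pair the cultures: deviations of same-numbered arrays from their group means correlated at r = 0.02, 0.12 and 0.15 for numbers 1, 2 and 3, and not every array correlated best with its own number. The mean over features and the trend and robust prior left Bmpr1b as the 1 call.

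The BMP arm median, -0.33, was 0.0056 with array weights, -0.014 without both replicate 3 arrays and -0.34 to 0.043 with 1 array left out. The TGF-beta and activin median, -0.35, was -0.023 without both replicate 3 arrays. Leaving out the 6 members of ambiguous arm gave a median of -0.35 for TGF-beta and activin and -0.22 for BMP. The cause of these shifts was not tested.

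Uncalled estimates that changed sign with array weights were those of Ltbp2 (0.099), Smad2 (0.016), Grem1 (0.053), Nog (0.040), Chrdl1 (0.12), Id2 (0.19) and Id4 (0.11). Without both replicate 3 arrays they were Tgfb3 (0.039), Ltbp2 (0.49), Acvr1b (0.015), Smad2 (0.020), Nog (0.16), Chrdl1 (0.050), Id2 (0.24), Id4 (0.27) and Bmp1 (0.20). With 1 array left out, estimates that changed sign ran from -0.76 to 0.11 for Tgfb2, -0.49 to 0.31 for Ltbp2, -0.27 to 0.68 for Tgfbr3, -0.51 to 0.19 for Acvr1b, -0.39 to 1.02 for Fst, -0.12 to 0.24 for Fstl3, -0.20 to 0.0095 for Bmp4, -1.11 to 0.29 for Grem1, -0.15 to 0.18 for Nog, -0.53 to 0.21 for Chrdl1, -0.020 to 0.20 for Smad9, -0.20 to 0.13 for Id2, -0.12 to 0.23 for Id3, -0.30 to 0.11 for Id4, -0.25 to 0.093 for Bmp1 and -0.026 to 0.27 for Gdf15.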
